A study of Homo sapiens with 4 samples.

Results

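The genes of 7 azurophil granule proteins, MPO, ELANE, PRTN3, AZU1, CTSG, BPI and LYZ, were examined for chromatin accessibility in HL-60 cells differentiated with all-trans retinoic acid (ATRA) and in control cells. HL-60 is a human leukemia cell line, whose disease the sample labels give as acute promyelocytic leukemia. The ATRA-treated cells had received 1 μM ATRA in ethanol for 4 days, and the control cells had received the same amount of ethanol for 4 days. Each condition had 2 independent cultures and 1 ATAC-seq library per culture. ATAC-seq marks open chromatin by the places where the Tn5 transposase inserts sequencing adapters, and the data were 1 list of peaks per library. The members were chosen by name: every peak that overlapped the body of 1 of the 7 genes or the 50 kb on either side was taken. The neighbouring windows of AZU1, PRTN3 and ELANE were merged, which left 5 windows of 103 to 133 kb. Overlapping peaks of the 4 lists were merged into regions, and 33 of the 78063 regions of the genome lay in the 5 windows. Of these 33, 18 were intergenic, 10 intronic and 5 exonic by their midpoint, and 9 touched the promoter of some gene, 5 of them that of a member.

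Azurophil granules are the first granules that a developing neutrophil makes. Many of their genes, though not all, are known to be transcribed most strongly at the promyelocyte stage and to be turned down as the cell matures. The proteins already packed stay in the granules. The contents kill ingested microbes. MPO, myeloperoxidase, makes hypochlorous acid from hydrogen peroxide and chloride. ELANE (neutrophil elastase), PRTN3 (proteinase 3) and CTSG (cathepsin G) are serine proteases, and AZU1 (azurocidin) is a relative of them that has lost its protease activity and kills bacteria. BPI binds the lipopolysaccharide of Gram-negative bacteria, and LYZ, lysozyme, cuts the peptidoglycan of bacterial walls. A lower peak in such bulk libraries can come from fewer cells with the site open or from a less open site in each cell, and these cannot be told apart.

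The lists differed in length, which touches every count below. They held 43494 peaks in ATRA replicate 1, 63541 in ATRA replicate 2, 42081 in control replicate 1 and 45903 in control replicate 2, and the peaks of ATRA replicate 2 were also wider (median 416 bp, against 291 to 328 bp in the other lists). Depth is unknown, since no reads are counted in them. The height of a peak was read as a percentile: the percent of peaks in the same list with a lower score, where 100 is the top of the list. Over the 23653 regions with a peak in all 4 lists, the median percentile was 79.2 in ATRA replicate 2 and 68.2 to 70.6 in the other libraries. Peaks lay at the promoters of 4 of 7 myeloid marker genes in all 4 lists and of 7 of 7 in at least 1. These markers were SPI1, CEBPA, CEBPE, CSF3R, CD33, MPO and LYZ, so MPO and LYZ are also members of the set studied here. LYZ had a peak in all 4 lists, MPO in 2 and CSF3R in control replicate 1 alone. None of the genes of other cell types had a promoter peak in all 4 lists (0 of 6). Of all 19794 protein-coding genes, 42.6% had a promoter peak in all 4 lists and 43.1% in none. With so few genes, the 4 of 7 lies near the first share, so the markers are a weak check of cell type.

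The upstream sequences of the protease genes are shown first, because these genes ranged from a peak over the start in every list (CTSG) to no peak there in any (AZU1). RefSeq promoter sequences (GRCh38.p14) were at hand for CTSG, AZU1 and PRTN3. The 250 bases before each start were found unchanged in hg19, at chr14:25045457-25045706 on the minus strand for CTSG, chr19:827587-827836 on the plus strand for AZU1 and chr19:840749-840998 on the plus strand for PRTN3. The AZU1 sequence precedes the inner of its annotated starts and lies in an intron of the longer transcript, and the other sequences are upstream of the whole gene. Capitals mark matches to TTGCNNAA, the core of the C/EBP motif, or to GAGGAAGT, the motif of PU.1, on either strand. Both factors are known regulators of granulocyte genes.
CTSG: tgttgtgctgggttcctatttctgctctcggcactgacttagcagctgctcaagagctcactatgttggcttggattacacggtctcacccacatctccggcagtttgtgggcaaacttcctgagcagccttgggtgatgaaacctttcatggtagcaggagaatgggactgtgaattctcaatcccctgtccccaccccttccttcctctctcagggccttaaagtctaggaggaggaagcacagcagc
AZU1: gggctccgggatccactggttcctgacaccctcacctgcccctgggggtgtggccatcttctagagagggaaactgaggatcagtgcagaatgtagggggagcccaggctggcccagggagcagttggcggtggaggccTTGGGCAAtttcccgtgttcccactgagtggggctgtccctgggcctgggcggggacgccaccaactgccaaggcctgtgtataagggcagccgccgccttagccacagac
PRTN3: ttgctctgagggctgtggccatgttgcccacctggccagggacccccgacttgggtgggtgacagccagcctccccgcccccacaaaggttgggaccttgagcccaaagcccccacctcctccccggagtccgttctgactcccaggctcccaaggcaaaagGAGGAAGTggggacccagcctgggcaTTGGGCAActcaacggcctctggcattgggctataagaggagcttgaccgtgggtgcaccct
The PRTN3 sequence held a PU.1 match that began 88 bases before the start and a C/EBP match 62 bases before it. The AZU1 sequence held a C/EBP match of the same 8 letters 111 bases before the start, and the CTSG sequence held neither. Searched on both strands, a C/EBP match was present in 10.5% and a PU.1 match in 2.59% of the 35116 promoters of the table, which are 300 bases long (250 before and 50 after the start). At CTSG, peaks covered 212 of the 250 bases in ATRA replicate 1 and all 250 in the other libraries. At PRTN3 they covered 250 in ATRA replicate 2 and 0 in the other libraries, and at AZU1 0 in all 4 libraries. A match of letters is a description of the sequence and does not show binding.

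At the promoters, defined as 1 kb before to 100 bp after an annotated start, CTSG, BPI and LYZ had a peak in all 4 lists, MPO in 2 lists, PRTN3 in 1 list, and ELANE and AZU1 in none. For comparison, 42.6% of 19794 protein-coding genes had a promoter peak in all 4 lists and 43.1% in none, and 3.65%, 4.17% and 6.45% had one in 1, 2 and 3 lists. The genes that differed between lists were MPO and PRTN3.

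**Figure D1:**
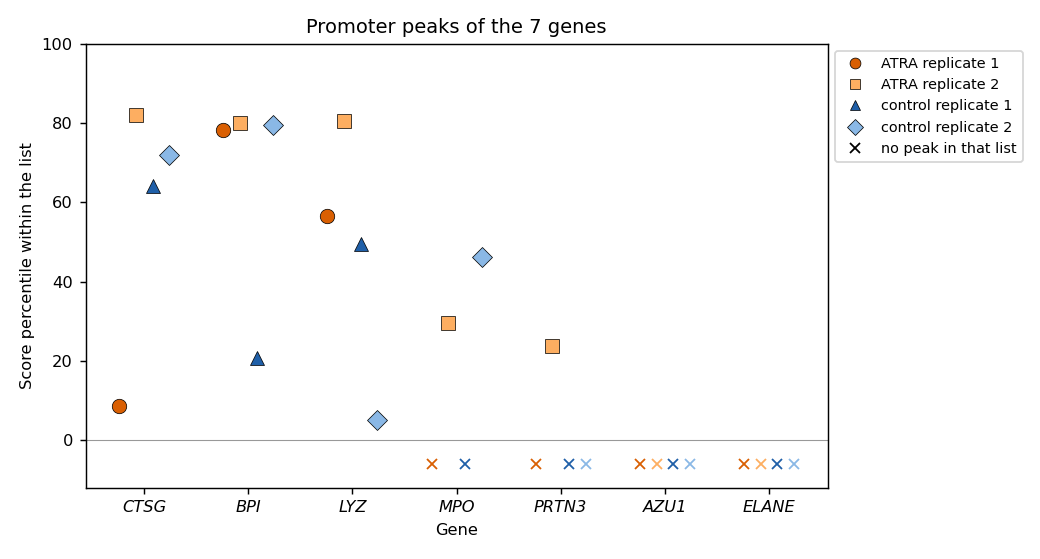
Score percentile (y axis, percent of peaks in the same list with a lower score) of the promoter peak of each of the 7 genes (x axis), with 1 symbol per library and a cross below the zero line where the list had no peak. LYZ is the gene whose 2 ATRA values both lie above its 2 control values, and at CTSG and BPI 1 library each sits far below the other 3.

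The LYZ promoter (ENSG00000090382, gene at chr12:69742161-69748014, plus strand) ranked higher in both ATRA-treated libraries. Its peak stood at percentile 56.5 in ATRA replicate 1, 80.4 in ATRA replicate 2, 49.5 in control replicate 1 and 5.13 in control replicate 2, with widths of 257, 412, 280 and 178 bp in the same order. The groups did not overlap, but ATRA replicate 1 and control replicate 1 lay close together and the low control mean came mainly from control replicate 2. ATRA-treated cells averaged 68.5 ± 16.9 and control cells 27.3 ± 31.4 (SD, n = 2 each), and the gap between the controls, 44.4, was larger than the difference of 41.2 between the groups (exact permutation test, two-sided, p = 0.333). With 2 libraries against 2, 0.333 is the smallest p that this test can give.

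The CTSG promoter (ENSG00000100448, gene at chr14:25042724-25045456, minus strand) carried a peak over the start in every library. Its percentile was 8.67 in ATRA replicate 1, 82.1 in ATRA replicate 2, 64.1 in control replicate 1 and 72.0 in control replicate 2. The ATRA-treated libraries were the lowest and the highest of the 4, with both controls between them. The group difference of -22.7 was far smaller than the gap of 73.4 between the ATRA replicates (exact permutation test, p = 1), and without ATRA replicate 1 it turned to 14.0. The other region of the window, 29298 bp upstream and near GZMH, a granzyme gene, was at 23.4 in ATRA replicate 1, 30.3 in ATRA replicate 2 and 67.4 in control replicate 2, and control replicate 1 had no peak there.

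The BPI promoter (ENSG00000101425, gene at chr20:36932552-36965907, plus strand) was similar in 3 libraries and low in 1. The percentile was 78.3 in ATRA replicate 1, 80.1 in ATRA replicate 2, 20.7 in control replicate 1 and 79.6 in control replicate 2. The difference of 29.1 between the groups (exact permutation test, p = 0.667) rested on control replicate 1, and without it the difference was -0.371. A second region stood 5217 bp upstream of BPI and ran the other way. It had no peak in ATRA replicate 1, and it was at 47.7 in ATRA replicate 2, 76.3 in control replicate 1 and 88.1 in control replicate 2. Both controls thus ranked above the ATRA-treated library that kept the peak.

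MPO (ENSG00000005381, chr17:56347216-56358296, minus strand) had no peak over its annotated start in any list. The nearest peak edge was 545 bp upstream in ATRA replicate 2 and 688 bp upstream in control replicate 2. It was 3767 bp upstream in control replicate 1 and 23474 bp upstream in ATRA replicate 1. The promoter peak was at percentile 29.7 in ATRA replicate 2 and 46.3 in control replicate 2. The libraries numbered 2 thus carried the peak and those numbered 1 did not, in both conditions. Farther upstream, 3933 bp before MPO, a region had no peak in ATRA replicate 1 and stood at 51.5, 45.2 and 39.1 in ATRA replicate 2, control replicate 1 and control replicate 2. Here ATRA replicate 1 was the exception and the remaining 3 libraries were close.

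The regions 3933 bp before MPO and 5217 bp before BPI are shown because they are the upstream sites nearest to a member that both controls and 1 ATRA-treated library held. They were chosen after their values were seen. The 300 bases about the middle of each follow in the direction of its gene (hg19), chr17:56362080-56362379 on the minus strand and chr20:36927186-36927485 on the plus strand, with C/EBP matches in capitals.
MPO upstream: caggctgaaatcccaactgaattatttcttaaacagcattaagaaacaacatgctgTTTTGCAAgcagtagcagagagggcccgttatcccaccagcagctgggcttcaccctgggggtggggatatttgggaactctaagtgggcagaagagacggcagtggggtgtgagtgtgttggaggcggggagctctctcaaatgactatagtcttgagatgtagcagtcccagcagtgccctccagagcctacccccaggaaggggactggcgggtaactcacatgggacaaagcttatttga
BPI upstream: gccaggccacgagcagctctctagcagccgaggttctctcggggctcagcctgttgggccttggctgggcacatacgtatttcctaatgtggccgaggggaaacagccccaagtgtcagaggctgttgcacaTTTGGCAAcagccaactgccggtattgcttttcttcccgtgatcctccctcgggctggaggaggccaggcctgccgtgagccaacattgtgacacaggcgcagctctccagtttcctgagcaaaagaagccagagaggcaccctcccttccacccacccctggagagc
Each held 1 C/EBP match and no PU.1 match. Over the same 300-base window, a C/EBP match was found in 6 of the 33 regions (18.2%) against 17.2% of all 78063 regions, and a PU.1 match in 7 (21.2%) against 10.3%. The RUNX motif TGTGGT was found in 6 (18.2%, against 25.4%), the MYB motif AACNG in 29 (87.9%, against 84.0%), and the GATA motif (AGATAA or TGATAA) in 7 (21.2%, against 26.8%). The ETS motif CCGGAAGT, which shares its last 6 letters with that of PU.1, was found in 1 (3.03%, against 1.47%). These shares are counts of short words in few regions and were not tested.

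The cluster of AZU1 (ENSG00000172232, chr19:825097-832018), PRTN3 (ENSG00000196415, chr19:840999-848175) and ELANE (ENSG00000197561, chr19:851014-856247), all on the plus strand, held almost no peaks at the genes themselves. The single promoter peak was at PRTN3 in ATRA replicate 2, at percentile 23.9 with a width of 330 bp. A further peak of ATRA replicate 2 ended 1099 bp before AZU1, at percentile 3.64, among the lowest of that list. From the ELANE start, the nearest peak edge was 12841 and 9983 bp away in the ATRA-treated libraries, against 12824 and 12899 bp in the controls. In ATRA replicate 1 and both controls that peak lay in an intron of CFD, the gene of complement factor D, and in ATRA replicate 2 it was the PRTN3 promoter peak. The CFD region itself was present in all 4 lists and low in each, at 40.9, 5.02, 30.0 and 14.0.

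**Figure D2:**
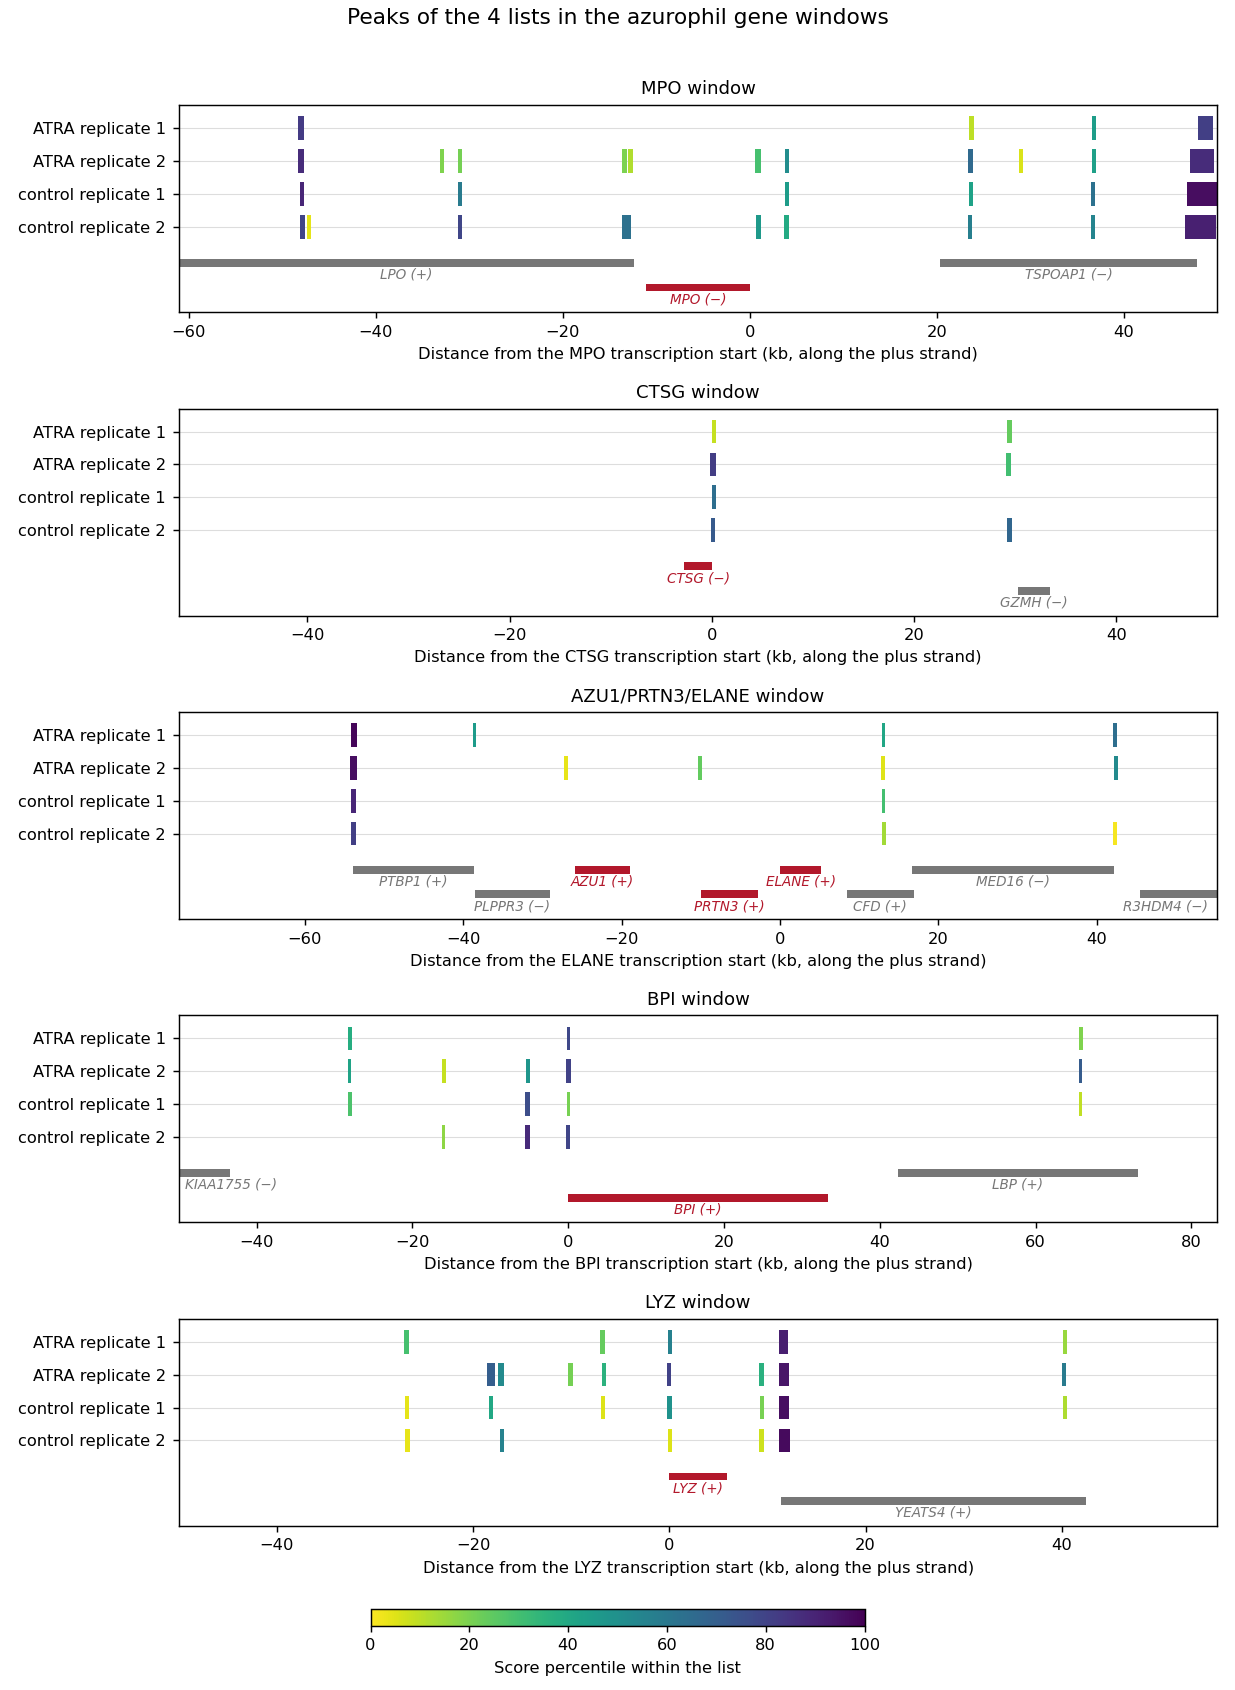
Peaks of each library (rows) in the 5 windows, by distance from the start of MPO, CTSG, ELANE, BPI or LYZ in kb along the plus strand; colour gives the score percentile within the list, and gene bodies are drawn below with the 7 genes in red. Narrow peaks are drawn wider than they are so that they show. The starts of YEATS4, PTBP1 and TSPOAP1 carry high-ranking peaks in every library, and the peaks just before AZU1 and at PRTN3 are in ATRA replicate 2 alone.

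By the mean percentile over the lists that held it, the strongest region of 3 of the 5 windows belonged to a neighbouring gene. In the LYZ window this was the promoter of YEATS4, a subunit gene of chromatin-modifying complexes, at 91.5 and 94.5 in the ATRA-treated libraries, against 96.1 and 97.5 in the control libraries. In the cluster window it was the promoter of PTBP1, which encodes a splicing regulator, at 98.5 and 96.3 in the ATRA-treated and 89.2 and 81.6 in the control libraries. In the MPO window it was the promoter of TSPOAP1, at 81.4 and 87.6 in the ATRA-treated and 96.7 and 91.1 in the control libraries. There the groups were apart in width as well, with 1621 and 2597 bp under peaks in the ATRA-treated and 3263 and 3273 bp in the control libraries. An intronic region of LPO ranked slightly above it in both ATRA-treated libraries, at 82.6 and 87.6, and below it in the controls, at 89.5 and 79.7. In the CTSG window the strongest region was the promoter of CTSG itself, and in the BPI window it was the upstream region, whose mean of 70.7 over the 3 lists that held it was above the mean of 64.7 over 4 lists at the BPI promoter.

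**Figure D3:**
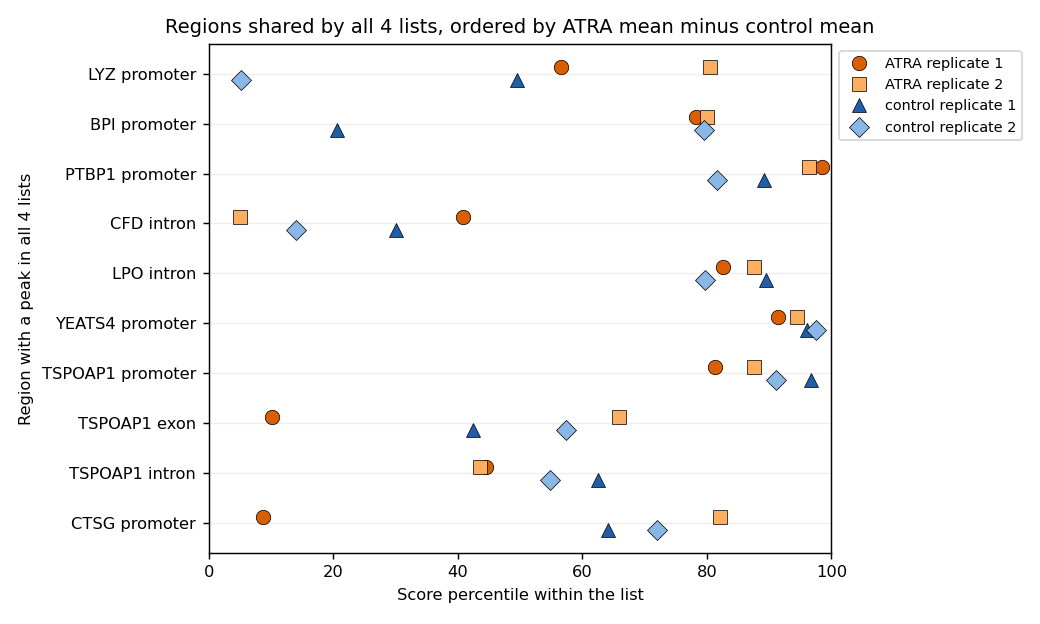
Score percentile within the list (x axis) of the 10 regions in the windows that had a peak in all 4 lists (y axis, ordered by the ATRA mean minus the control mean), 1 symbol per library. ATRA-treated and control symbols are fully apart in 5 regions, of which the LYZ promoter is the only one at a member gene.

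No region near the 7 genes was strictly gained or lost. Of the 33 regions, 0 had a peak in both ATRA lists and neither control list, against 8.94% of all regions of the genome, and 0 had a peak in both control lists and neither ATRA list, against 3.37%. Per gene, 42.3% of the 19096 protein-coding genes with a region in their window had a gained region in it and 17.1% had a lost one, and 9325 genes had neither. Among the 10483 genes no longer than BPI, the longest member, these shares were 38.5% and 13.9%. The gene windows of the members held 2 to 11 regions (median 5, against 6 over all genes). A window with neither call was thus common for a single gene, by the 9325 genes above. How often all of 7 genes would have neither was not tested.

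Among the 10 regions with a peak in all 4 lists, 2 ranked higher in both ATRA-treated libraries (29.2% of all such regions did) and 3 ranked lower (12.8%), while 5 overlapped. The higher regions were the promoters of LYZ and PTBP1. The lower ones were the promoters of YEATS4 and TSPOAP1 and an intronic region of TSPOAP1 (44.6 and 43.5 in the ATRA-treated, 62.6 and 54.8 in the control libraries). Over the genome the lists as deposited gave 69.6% of such calls as higher, and lists reduced to equal numbers of peaks gave 52.0%, so the direction of these calls moved with list length. In the windows, equal numbers of peaks left PTBP1 as the higher region and the same 3 as lower, and LYZ was then no longer held by all 4 lists. The difference between the groups was larger than both gaps between replicates in 4 of the 10 regions, all of them at neighbouring genes. The median percentile of the 10 regions was 67.4 and 81.3 in the ATRA-treated and 63.4 and 75.8 in the control libraries, which overlapped (difference 4.75, exact permutation test, p = 0.667).

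Several regions were held by every library but 1. There were 5 regions in both control lists and not in both ATRA lists (9.53% of all regions were of this kind), and in 4 of these it was ATRA replicate 1 that lacked the peak. The 4 were the upstream regions of MPO and BPI, a region 9349 bp after the LYZ start and an intronic region of LPO, the lactoperoxidase gene beside MPO. The LPO region was at 20.7 in ATRA replicate 2, 58.7 in control replicate 1 and 79.0 in control replicate 2. The fifth, 26864 bp before LYZ, was missing from ATRA replicate 2. In the other direction, 6 regions were in both ATRA lists and not in both control lists (17.9% of all regions were), and 4 of these lacked a peak in control replicate 2 alone. An example is the region 6832 bp before LYZ, at 23.5 and 36.1 in the ATRA-treated libraries and 5.11 in control replicate 1. Such patterns were seen in both directions and rested on 1 library each.

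**Figure D4:**
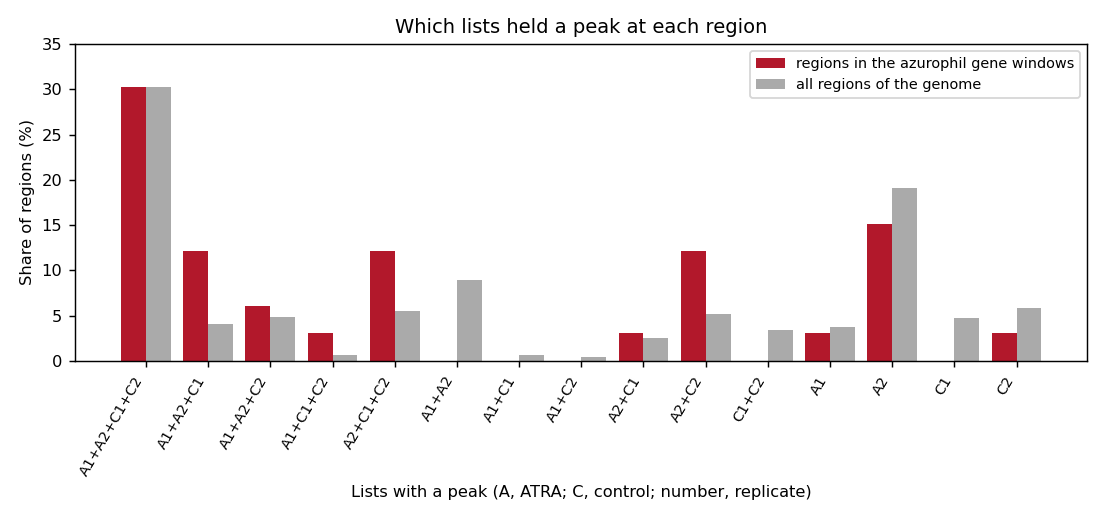
Share of regions in percent (y axis) with each combination of lists that held a peak (x axis; A, ATRA; C, control; the number is the replicate), for the 33 regions of the windows in red and all 78063 regions in grey. Bars for all 4 lists are equal at 30.3%, and the combinations A1+A2 and C1+C2, which are the gained and lost regions, have no red bar.

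By library, ATRA replicate 2 held 30 of the 33 regions (90.9%, against 80.5% of all regions). ATRA replicate 1 held 18 (54.5%, against 53.8%), control replicate 1 held 20 (60.6%, against 51.8%) and control replicate 2 held 22 (66.7%, against 56.2%). The 2 ATRA-treated libraries were thus the ends of the range, with both controls between them. Regions held by 3 lists made up 33.3% of those in the windows and 15.1% of all regions. The pair of libraries numbered 2 alone shared 4 regions (12.1%, against 5.18%), among them the MPO promoter and a region in an exon of LPO beyond the 3′ end of MPO, at 19.8 in ATRA replicate 2 and 63.0 in control replicate 2.

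Summed over the 5 windows, raw peak counts and base pairs of ATRA-treated and control cells did not differ beyond the spread of the replicates. The windows held 18 and 31 peaks in the ATRA-treated libraries against 20 and 22 in the controls, which are means of 24.5 ± 9.19 and 21.0 ± 1.41 (SD, n = 2 each; exact permutation test, two-sided, p = 1). Peaks covered 7674 and 16568 bp in the ATRA-treated and 10218 and 11871 bp in the control libraries (difference 1076 bp, exact permutation test, p = 1). As a share of the list, the windows took 438 and 524 bp per Mb under peaks in the ATRA-treated and 599 and 727 bp in the control libraries. The groups did not overlap on this scale, with the ATRA-treated libraries lower (exact permutation test, p = 0.333, the smallest possible). These sums include the widest region of the windows, the promoter of the neighbouring gene TSPOAP1, 48275 bp upstream of MPO. It held 1621 and 2597 bp under peaks in the ATRA-treated and 3263 and 3273 bp in the control libraries. With the base pairs of that region left out, ATRA replicate 2 stood above control replicate 1 on this scale, and the groups overlapped. The lower share thus cannot be assigned to the granule protein genes themselves. In peaks per 10000 of the list the values were 4.14, 4.88, 4.75 and 4.79 and the groups overlapped.

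**Figure D5:**
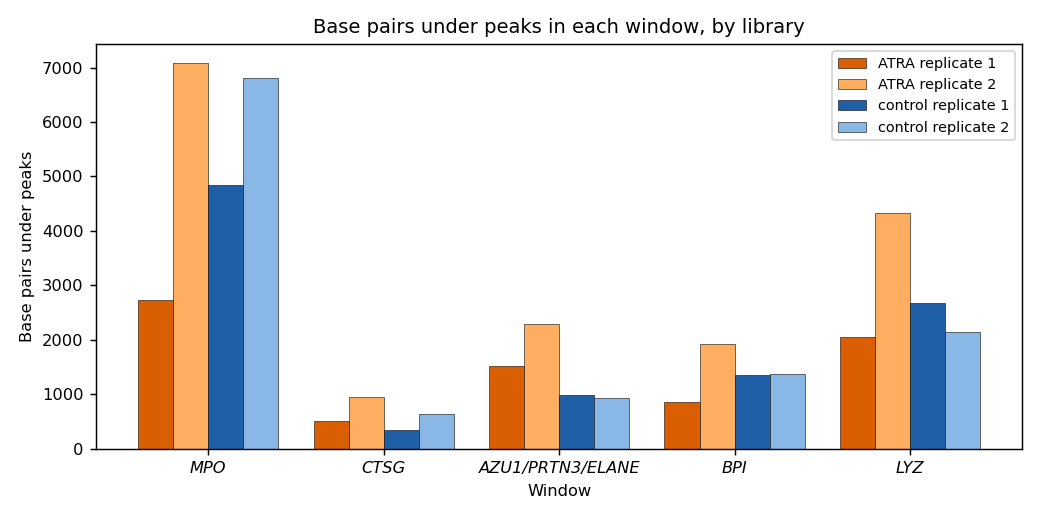
Base pairs under peaks (y axis) in each window (x axis), 1 bar per library. ATRA replicate 2 has the tallest bar in each window, and the AZU1/PRTN3/ELANE window is the one where both ATRA-treated libraries (1522 and 2283 bp) exceed both controls (993 and 924 bp).

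Window by window, the groups were apart in 3 windows when base pairs were taken as a share of those under all peaks of the list. The AZU1/PRTN3/ELANE window was higher in both ATRA-treated libraries, and the MPO and BPI windows were lower in both. The MPO window includes the TSPOAP1 promoter, and without that promoter its groups overlapped. These window shares were not tested. In raw peaks and base pairs, the AZU1/PRTN3/ELANE cluster was the only window in which the groups did not overlap. It held 4 and 5 peaks in the ATRA-treated and 2 and 3 in the control libraries, and 1522 and 2283 bp against 993 and 924 bp under peaks (exact permutation test, p = 0.333 for both). The additional peaks of the ATRA-treated libraries were each of 1 library, at PRTN3, near AZU1 and in an exon of PTBP1, or were at the promoter of MED16, a subunit gene of the Mediator complex, which stood at 64.3 and 52.4 in the ATRA-treated libraries, 1.26 in control replicate 2 and no peak in control replicate 1. The MPO window ran from 4 and 11 peaks in the ATRA-treated to 6 and 9 in the control libraries. The LYZ window held 5 and 8 against 7 and 5, the BPI window 3 and 5 against 4 and 3, and the CTSG window 2 and 2 against 1 and 2. Over all 18 permutation tests of these values, every Benjamini-Hochberg adjusted p was 1. No adjusted p could have been below 0.333 with so few libraries, so these tests could neither show nor exclude a difference.

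A list of 23 further genes, other azurophil contents, granule membrane and matrix proteins, inhibitors of the proteases and family relatives, gave a different count. Of these, 14 had a gained region in their window, 7 had a lost one, 2 had both and 4 had neither, beside the 42.3% and 17.1% of all genes given above. The windows held from 2 regions (GZMH) to 17 (RAB27A), against 2 to 11 for the members. The counts were not matched for gene length or number of regions, so they cannot be set directly against those of the members. These windows overlap in part. EPX and LPO share 1 lost region, and GZMH, LBP and LPO lie wholly or in part in the windows of CTSG, BPI and MPO, so the counts are not of separate regions. CTSD, the aspartic protease cathepsin D, had 4 gained regions. That at its start was at 62.0 and 25.9 and that 46408 bp upstream at 75.1 and 79.7 in ATRA replicates 1 and 2. GLB1, beta-galactosidase, had 3, and GAA, which breaks down glycogen, had 2, of which that at its start was low, at 13.7 and 30.7. RAB27A, a GTPase of granule release, had a weak one beside an annotated start at 4.91 and 24.4. Its highest promoter peak was in all 4 lists, at 80.2 and 83.1 in the ATRA-treated and 76.8 and 66.0 in the control libraries.

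FUCA1, a lysosomal fucosidase, had 1 gained and 2 lost regions. On the lost side, RNASE2, an eosinophil granule ribonuclease, had a region at its start at 64.9 in control replicate 1 and 50.6 in control replicate 2. CTSC, the protease cathepsin C that activates the granule serine proteases, had a lost region 4903 bp upstream, at 24.2 and 75.6 in the controls. Its own promoter was held by all 4 lists and ranked higher in the ATRA-treated libraries, at 92.0 and 97.4 against 77.9 and 80.8. RNASE3, DEFA4, GZMH and LBP had neither call. At the promoters, 10 of the 23 genes had a peak in all 4 lists, 3 in 2 lists and 10 in none. The list was described by counts alone and was not tested as a set.

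Genes whose promoters behaved most like those of the members were sought by the Euclidean distance between the 4 percentiles, with 0 where there was no peak, over 19793 other protein-coding genes. Nearest to CTSG was DPM2 (distance 5.65), which was at 11.8 and 77.6 in the ATRA-treated and 65.1 and 73.1 in the control libraries. Nearest to BPI was NAXD (9.38), to LYZ DPYD (8.71) and to MPO TBX10 (2.53). For PRTN3, with a peak in 1 list, 142 genes lay within a distance of 10 and HOXB5 was the nearest (0.0763). These likenesses rest on 4 values each, and the within-group spread of CTSG and BPI is part of them.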

How the data were processed

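ATAC-seq was done on ATRA-treated and control HL-60 cells, with 2 libraries each. Per the labels and the methods, the authors trimmed reads with cutadapt, aligned them to hg19 with Bowtie (Bowtie2 in the processing notes) and called peaks with MACS2 at default settings; versions, a Tn5 shift and duplicate removal are not given in the sources used here. The deposited lists hold a score per peak of unstated scale (50 to 3100), used only as a percentile within its list.

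Peaks sharing at least 1 bp were merged into regions in Python 3.11.15 (pandas 2.3.3, numpy 2.4.6). Windows and promoters follow GENCODE release 44 on GRCh37. Gained means both ATRA and neither control list, and lost the reverse. Values per library were compared by an exact permutation test over the 6 divisions of 4 libraries. The members and lists were chosen with earlier results of these data known. All 7 genes are described; single regions are the promoters of members, the strongest of each window, and those called. The merging and calling were tested on simulated data. Alternatives were equal list lengths, only peaks above the median score, peaks of 200 bp, windows of 20 and 100 kb, a replicate block and leaving out each library. The result of one marker gene of another cell type is not reported here.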

Additional observations from a re-analysis of the deposited data

How the results depend on the processing

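Counts of 0 lost and 0 gained regions held with peaks set to 200 bp and with 20 kb windows. They became 1 and 1 among 27 regions with equal numbers of peaks. With only the peaks above the median score of each list they were 3 and 2 among 19 regions. Windows of 100 kb gave 3 and 0 among 58 regions. Leaving a library out gave 0 to 4 and 1 to 5 among 28 to 33 regions. A call is then easier to meet, since 1 list alone decides for its group. Shares over all regions of the genome were not computed under these settings, so these counts have no background beside them. The 4 lost regions without ATRA replicate 2 and the 5 gained ones without ATRA replicate 1 are the extremes. A looser definition added after seeing the data (both libraries of a group and not both of the other) gave 5 and 6. Of all regions of the genome, 9.53% and 17.9% met it.

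The difference of 3.5 peaks became 0 with equal numbers and with upper-scoring peaks, and was -3 at the lowest, when ATRA replicate 2 was left out, and 10 at the highest, when ATRA replicate 1 was. The difference of 1076 bp became -798 and -704, and ranged from -3370 to 5524 with the same libraries left out. The median percentile difference of 4.75 became -0.503 with upper-scoring peaks and ranged from -10.8 to 13.3. Regions ranked higher numbered 2, then 1 with equal numbers, upper-scoring peaks or 20 kb, 4 with 100 kb, and 4 to 7 with a library left out. Regions ranked lower numbered 3 and stayed 3 with equal numbers. They were 2 with upper-scoring peaks or peaks of 200 bp, 1 with 20 kb, 4 with 100 kb, and 4 to 6 with a library left out. With equal numbers of peaks the windows held 8 regions in all 4 lists. Over the genome, 22.6% of such regions then ranked higher and 20.9% lower. For the other settings these shares were not computed. The promoter difference of CTSG ranged from -59.4 to 14.0 (without ATRA replicate 1), that of BPI from -0.371 (without control replicate 1) to 58.5, and that of LYZ stayed positive, 19.0 to 63.3, but had no value under either list reduction. The causes were not tested.

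With the replicate number as a block the differences were 3.5 peaks (-2 and 9 for numbers 1 and 2), 1076 bp (-2544 and 4697) and 4.75 percentile points (4.03 and 5.48). The exact p of this paired permutation test were 1, 1 and 0.5, where 0.5 is the smallest possible. A block of this kind cannot change the differences themselves, only their p. Of 91 alternative values, 56 kept their direction or, for a count, stayed within 1.5 times of it, 27 moved and 8 reversed. Without read counts, a missing peak cannot be told from one just under the calling threshold.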
